A study of Homo sapiens with 8 samples.

Results

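The 29 genes described here encode subunits of the Polycomb repressive complexes PRC1 and PRC2 and were taken by name, out of the 19821 that code for protein on chromosomes 1 to 22 and on X. All 29 were found in the RefSeq annotation of GRCh38.p14. They were divided by their place in the complexes into PRC2 core (4 genes), PRC2.1 accessory (4), PRC2.2 accessory (2), the PRC1 E3 ligases (2), the PCGF proteins (6), the chromobox (CBX) proteins of canonical PRC1 (4), the PHC and SCM proteins of canonical PRC1 (4) and variant PRC1 (3). Their bodies ran from 2653 bp (PCGF1) to 275974 bp (JARID2), with a median of 48478 bp against 24482 bp over all genes, and added up to 1843 kb.

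The study mapped a histone mark and the enzyme that removes it by chromatin immunoprecipitation sequencing (ChIP-seq) in neural progenitor cells. These were derived from the established human line H9, whose embryonic stem cells had first been infected with lentivirus and selected with puromycin. The virus carried a control hairpin RNA (NC) or either of 2 short hairpin RNAs against KDM2A, named sh1 and sh4. Dimethylation of histone H3 lysine 36 (H3K36me2) was precipitated from NC, sh1 and sh4 cells, and KDM2A from NC cells. All groups thus share the H9 background, the infection and the selection, and differ by hairpin. Each of these 4 libraries was the single library of its group, so the spread between cultures is not known for any value and groups could not be tested against each other. The labels give no measure of how far KDM2A was reduced, and KDM2A was not mapped in sh1 or sh4 cells. The 4 input libraries were not analysed here. The labelled cell type could not be checked against marker genes, since none of these lists measures expression.

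Polycomb complexes keep genes silent. PRC2 methylates lysine 27 of histone H3, and PRC1 attaches ubiquitin to histone H2A. In neural progenitors they are known for holding genes of other lineages and of later stages of differentiation in check. KDM2A takes methyl groups from H3K36me2 and binds unmethylated CG dinucleotides through a zinc finger, while its paralogue KDM2B is a subunit of the variant PRC1 that holds PCGF1 and BCOR. H3K36 methylation is known to hinder PRC2 on the same histone tail.

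Because KDM2A binds CG-rich DNA, the promoters of 5 members are printed first. They were picked after the values were seen, to show a KDM2A peak over the promoter (RNF2, BCOR), a peak of low FDR just past the start (YAF2), and no peak within 2 kb of the start (EZH2, SUZ12). Each runs from 250 bp before to 50 bp after the start listed by RefSeq on GRCh38.p14, 5′ to 3′ on the strand of the gene, with every CG dinucleotide in capitals. The positions are chr1:185045308-185045607 (plus strand) for RNF2, chrX:40177228-40177527 (minus strand) for BCOR, chr12:42238199-42238498 (minus strand) for YAF2, chr7:148884242-148884541 (minus strand) for EZH2 and chr17:31936757-31937056 (plus strand) for SUZ12.
RNF2: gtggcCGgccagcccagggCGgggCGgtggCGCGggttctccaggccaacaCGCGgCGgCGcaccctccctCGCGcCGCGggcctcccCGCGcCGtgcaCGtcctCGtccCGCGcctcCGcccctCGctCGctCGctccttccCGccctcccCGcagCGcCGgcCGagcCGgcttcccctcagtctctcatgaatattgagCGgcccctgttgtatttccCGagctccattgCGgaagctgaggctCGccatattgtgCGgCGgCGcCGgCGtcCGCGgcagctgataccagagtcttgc
BCOR: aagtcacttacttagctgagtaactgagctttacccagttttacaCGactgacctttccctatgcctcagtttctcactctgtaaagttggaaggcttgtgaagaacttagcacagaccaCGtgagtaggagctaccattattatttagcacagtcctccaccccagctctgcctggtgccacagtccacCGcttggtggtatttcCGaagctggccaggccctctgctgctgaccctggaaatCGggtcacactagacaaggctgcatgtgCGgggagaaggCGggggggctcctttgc
YAF2: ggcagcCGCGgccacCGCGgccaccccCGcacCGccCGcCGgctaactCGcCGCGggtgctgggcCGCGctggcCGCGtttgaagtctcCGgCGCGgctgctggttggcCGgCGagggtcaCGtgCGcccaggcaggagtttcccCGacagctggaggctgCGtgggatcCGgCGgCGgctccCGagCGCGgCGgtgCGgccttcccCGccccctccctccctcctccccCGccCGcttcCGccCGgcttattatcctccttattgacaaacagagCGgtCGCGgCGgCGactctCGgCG
EZH2: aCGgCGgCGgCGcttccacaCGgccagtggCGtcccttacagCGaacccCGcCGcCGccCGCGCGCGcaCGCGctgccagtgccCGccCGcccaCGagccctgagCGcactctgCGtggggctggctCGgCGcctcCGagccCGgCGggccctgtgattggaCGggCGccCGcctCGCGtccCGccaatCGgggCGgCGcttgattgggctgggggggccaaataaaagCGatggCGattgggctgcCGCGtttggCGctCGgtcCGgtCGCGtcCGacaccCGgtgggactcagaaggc
SUZ12: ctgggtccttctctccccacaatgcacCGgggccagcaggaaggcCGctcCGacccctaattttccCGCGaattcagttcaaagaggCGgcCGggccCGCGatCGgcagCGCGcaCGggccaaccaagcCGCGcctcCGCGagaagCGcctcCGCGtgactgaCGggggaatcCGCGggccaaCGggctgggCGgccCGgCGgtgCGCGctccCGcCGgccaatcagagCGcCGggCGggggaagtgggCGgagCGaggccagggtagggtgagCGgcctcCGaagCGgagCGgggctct

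The RNF2 sequence holds 41 CG, BCOR 7, YAF2 44, EZH2 46 and SUZ12 40. Since the 5 were picked to show promoters with and without a peak, they say nothing of a relation between CG count and KDM2A. The KDM2A peak of RNF2 covered 32 to 329 bp past the start, with a deposited fold enrichment over local background of 2.77 and a false discovery rate (FDR) from the authors' peak caller of 0.273. The peak of BCOR lay 121 to 356 bp before the start, at a fold of 2.83 (FDR 0.223). The nearest peak lay 2.46 kb from the listed start of EZH2 and 10.9 kb from that of SUZ12.

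Promoter sequences and strands were listed for 26 members and 15813 genes in all; EPOP, CBX2 and CBX8 were not in that table. The motif searched was CG, which reads the same on both strands. At least 1 CG was present in 100% of the members' promoters and 98.1% of all promoters of the same length. Members' promoters held a median of 30 CG, from 2 (PCGF2) to 52 (PCGF5), against a median of 22 over all. At least 20 CG were present in 19 members (73.1%) and in 55.6% of all promoters. A KDM2A peak lay within 500 bp of the listed start in 13 members (50%) and in 39.3% of all genes. Over all genes this share was higher in classes of higher CG count: 30.7% with 0 to 9 CG, 36.5% with 10 to 19, 42.7% with 20 to 29 and 45.9% with 30 or more. In the same classes it was 1 of 2, 1 of 5, 2 of 5 and 9 of 14 members. A peak overlapped the printed 300 bp in 6 members, namely EZH1, MTF2, PHF19, RNF2, CBX6 and BCOR (23.1%, against 21.3% of all promoters). All these counts take peaks of any FDR, and only 3.13% of the 504724 peaks in the list had an FDR under 0.05. The nearest peaks of the 13 members had FDRs from 0.0644 (PHF19) to 0.839 (EZH1), so none of them was under 0.05.

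**Figure D1:**
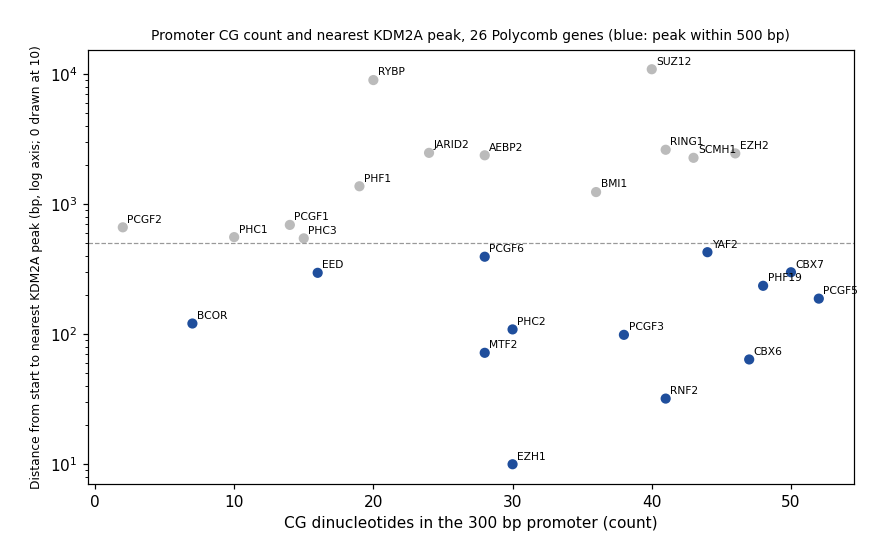
CG dinucleotides in the 300 bp promoter (x axis, count) and distance from the listed start to the nearest KDM2A peak in the control library (y axis, bp, log scale, 0 drawn at 10) for 26 Polycomb genes. Blue points have a peak within 500 bp; SUZ12 (40 CG) and RYBP (20 CG) stand highest, and EZH1, whose peak overlaps the start, lies lowest.

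KDM2A peaks in NC cells were found within 2 kb of an end of nearly every Polycomb gene, but so they were for most genes. Of the 29 members, 27 had a peak at either end, against 84% of all protein-coding genes, and the exceptions were SUZ12 and PCGF2. Where the strand was known, 18 of 26 had a peak within 2 kb of the start, the outer gene end by strand (66.1% of all genes), and 17 of 26 within 2 kb of the other end (58.9%). The 57 peaks counted at member ends had folds from 1.66 to 3.54 with a median of 2.32, beside a median of 2.33 over the 504724 peaks of the list. Their pileup, the deposited height of stacked fragments, ran from 5 to 11 with a median of 7, against a median of 8 in the whole list, so each rests on few fragments. Only 2 members, YAF2 and BCOR, had an end peak with an FDR under 0.05, which is 6.90% beside 5.55% of all genes. Each of these shares lay near that of all genes.

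The 2 end peaks of low FDR belonged to genes of variant PRC1, the forms of PRC1 that hold RYBP or YAF2 in place of a CBX protein. YAF2 encodes the paralogue of RYBP, and BCOR the corepressor that assembles the PCGF1 complex. At YAF2 the peak spanned 42237368 to 42237626 on chromosome 12, 622 to 880 bp past the start and inside the gene. At BCOR it spanned 40175087 to 40175289 on chromosome X, 1988 to 2190 bp past the start, so it touched the 2 kb window by its edge and its midpoint, 2.09 kb from the start, lay outside. Both peaks had a fold of 3.54, an FDR of 0.0389 and a pileup of 11. The third variant PRC1 gene, RYBP, had no peak at its start and one at its other end (fold 2.32, FDR 0.457).

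Among the PRC2 core genes, EZH1 and EZH2 encode the methyltransferases, EED the subunit that reads trimethylated lysine 27, and SUZ12 the scaffold. EZH1 had 2 peaks at its start (folds 2.51 and 1.70) and 3 at its other end (1.81 to 3.03). EZH2 had none at its start and one at its other end, with a fold of 2.74. EED had a start peak of fold 2.59 and an end peak of fold 1.99. The FDRs of these 8 peaks lay between 0.145 and 0.839.

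The accessory subunits steer PRC2 to chromatin. In PRC2.1, MTF2, PHF1 and PHF19 are the Polycomb-like proteins and EPOP binds elongin. MTF2 had peaks on both sides of its start (folds 2.44 and 2.42), PHF1 had a start peak of fold 2.05 and EPOP a peak of fold 1.81 at its end of higher coordinate. The end peak counted for PHF19 (fold 2.28) lay inside the neighbouring gene TRAF1, and the peak at the far end of PHF1 (fold 1.87) inside CUTA. The listed start of PHF19 lay 26.9 kb inside its outer end, and there a peak of fold 3.32 and FDR of 0.0644 was found 236 bp away. In PRC2.2, JARID2 and AEBP2 bind DNA and ubiquitinated histone H2A. JARID2 had no start peak and a far end peak of fold 2.34, and AEBP2 had folds up to 2.57 at its start and 3.11 at its far end.

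RING1 and RNF2 are the ubiquitin ligases shared by all PRC1 forms. RING1 had 2 peaks past its far end (folds 2.70 and 2.33), none at its start and none in its body, whereas RNF2 had the start peak given with its sequence. The PCGF proteins pair with these ligases and set the form of PRC1, and BMI1 and PCGF2 mark the canonical forms. PCGF3 had start peaks of folds 2.42 and 2.33, PCGF6 of 2.33, BMI1 of 2.32 and PCGF1 of 2.202. The BMI1 body and its start peak are shared with the read-through gene COMMD3-BMI1. PCGF1 is short enough that its start peak also fell in the window of its other end. PCGF5 had a far end peak of fold 3.16, and PCGF2 had no peak within 2 kb of either outer end. The listed start of PCGF2 lay 3.16 kb inside its outer end, with a peak 665 bp away (fold 2.35, FDR 0.437). That of PCGF5 lay 6.77 kb inside, with a peak 188 bp away (fold 1.87, FDR 0.693).

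CBX proteins read trimethylated lysine 27 in canonical PRC1, and PHC and SCM proteins polymerise it. CBX2 and CBX8 are neighbours on chromosome 17, and CBX2 had 6 end peaks (folds 1.66 to 3.11) and CBX8 had 4 (1.66 to 2.85). CBX6 had a start peak of fold 1.95 and a far end peak of 3.11, and CBX7 a start peak of 2.27. PHC1, PHC2 and PHC3 had start peaks with folds up to 2.01, 2.59 and 2.07. SCMH1, an SCM protein that binds PHC proteins, had a far end peak of fold 2.40 and no start peak. None of the end peaks named in the PRC2, ligase, PCGF, CBX, PHC and SCM groups had an FDR under 0.05.

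**Figure D2:**
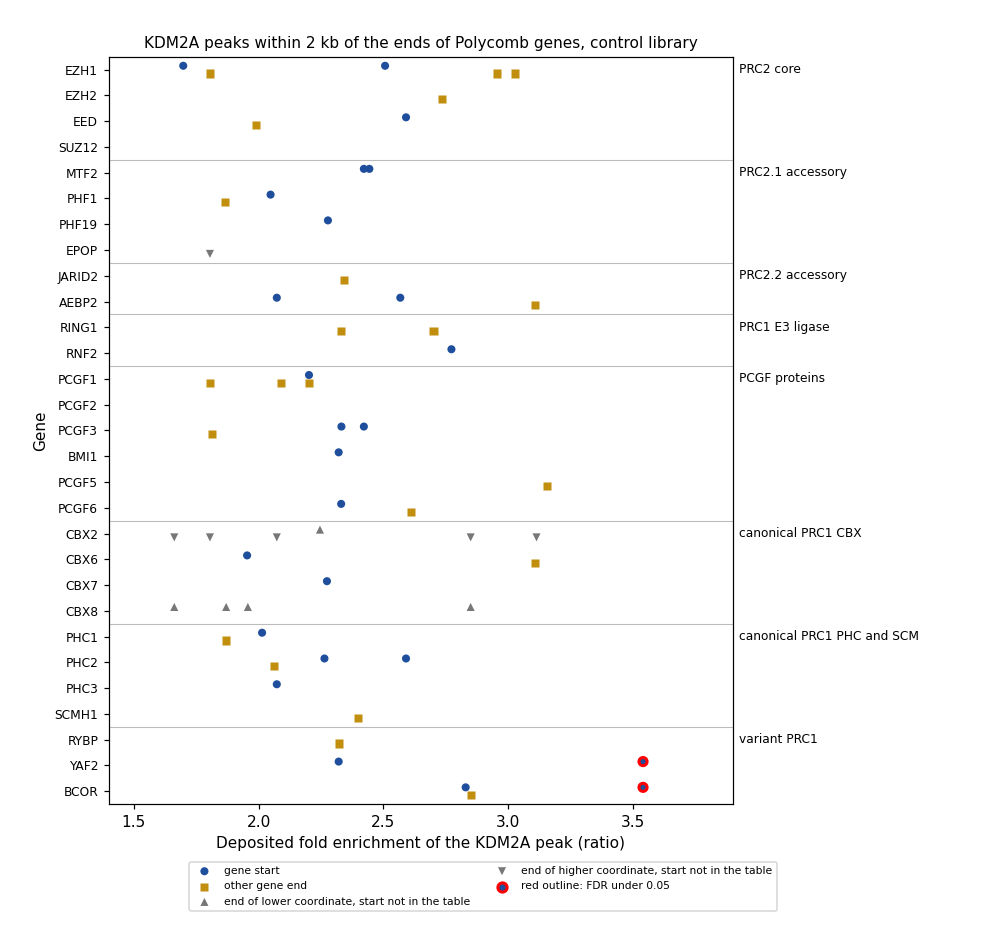
Deposited fold enrichment (x axis, ratio) of each KDM2A peak within 2 kb of an end of the 29 Polycomb genes (y axis, grouped by complex) in the single control library. Folds run from 1.66 to 3.54, SUZ12 and PCGF2 have no point, and the 2 points with a red outline, at YAF2 and BCOR, have an FDR under 0.05.

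In gene bodies the members together held 328 KDM2A peaks, and 27 of the 29 had at least 1 (90.1% of all genes), RING1 and CBX6 being without. The density was 17.8 peaks per 100 kb over the members' pooled length and 17.5 over all genes. Per gene it ran up to 60.7 per 100 kb in CBX8, and the lowest value above 0 was 6.69 in MTF2. By group the pooled density was 28.97 per 100 kb in the CBX genes, 26.5 in variant PRC1, 19.3 in the PRC2 core, 18.7 in PRC2.1, 17.0 in the PCGF genes, 15.2 in PRC2.2, 13.7 in the PHC and SCM genes and 11.4 in the ligases. The CBX value came from 14 peaks in 48.3 kb and the ligase value from 7 peaks in 61.3 kb. The highest group values are thus split between the shortest genes and variant PRC1, in which BCOR alone held 44 peaks (34.9 per 100 kb).

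Body peaks with an FDR under 0.05 were found in 8 members (27.6%), beside 20.1% of all genes. Of the members of 50 kb or longer 7 of 14 had one, against 43.5% of all genes of that length; the 50 kb limit was chosen after values had been seen. The member with the highest fold was EED, with peaks of fold 5.05 (FDR 5.36e-05, centred 14.1 kb past the start) and 3.79 (FDR 0.0214, 28.4 kb). BCOR followed with a peak of fold 4.28 (FDR 0.000724) at 49.3 kb, besides that near its start. AEBP2 had a peak of fold 4.10 (FDR 0.00591) at 83.6 kb. The others were at PHC2 (fold 3.59, FDR 0.0337), JARID2 (3.37, 0.0454), PHC3 (3.37, 0.0454) and SCMH1 (3.36, 0.0318), all more than 30 kb from the start, and the YAF2 peak already given. None of these 10 peaks overlapped an H3K36me2 region of any of the 3 libraries. Those regions covered only 4.29% (NC), 1.12% (sh1) and 4.18% (sh4) of the members' pooled length. With so little length covered, 10 peaks cannot show avoidance, and the share over all peaks of low FDR was not counted.

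H3K36me2 lay in the bodies of 11 of the 29 genes and was absent from the lists for the other 18. Coverage is the percent of a gene body inside deposited regions, and a coverage of 0 means that no region was called there. In NC 8 members had a region in the body (20% of all genes), in sh1 6 (16.2%) and in sh4 8 (15.4%), and 11 had one in at least 1 library (29.4%). Mean coverage of the 29 was 2.199% in NC, 0.594% in sh1 and 3.19% in sh4, beside 2.07%, 1.41% and 1.53% over all genes, and every median was 0. Over the pooled length the members were covered to 4.29%, 1.12% and 4.18%, against 3.599%, 3.10% and 3.53% over all genes. In sh1 the value was below NC on both measures. In sh4 it was above NC by the mean per gene and slightly below by pooled length, and without RNF2, left out after its value was seen, the means were 2.03% in NC, 0.615% in sh1 and 2.11% in sh4.

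The PRC2 core and CBX genes had no covered base in any library. This held for EZH1, EZH2, EED, SUZ12, CBX2, CBX6, CBX7 and CBX8, and also for PHF1, PHF19, EPOP, RING1, PCGF1, PCGF2, BMI1, PCGF6, PHC1 and PHC3. Mean coverage in NC, sh1 and sh4 was 8.73%, 3.11% and 0.833% in the PRC2.2 pair, 8.33%, 2.44% and 8.65% in variant PRC1 and 2.39%, 0.182% and 1.59% in the PCGF genes. The ligases had 3.51%, 0% and 16.7%, the PHC and SCM genes 0%, 0.651% and 3.16%, and PRC2.1 0%, 0% and 2.34%. PRC2.2 and variant PRC1 were thus the most covered groups in NC when all regions were counted. Their median body lengths were 197.1 and 81.1 kb, against 48.5 kb for all members. Above the NC median fold RYBP, YAF2 and BCOR had 3.61%, 0% and 2.06% in NC. The ligases stayed at 3.51%, so variant PRC1 then ranked below them. By the means over all called regions PRC2.2 and the PCGF genes were lower than NC in both hairpins and the PHC and SCM genes higher in both. The PRC2.2 mean follows JARID2, since AEBP2 was slightly higher in sh1 than in NC. Of the PCGF genes only PCGF3 and PCGF5 were covered, and PCGF5 was higher in sh4 than in NC. Pooled coverage of the PCGF genes was 4.66%, 0.519% and 4.52% in NC, sh1 and sh4. Their direction did not hold under either fold limit. Above the NC median fold PCGF3 was at 0% in every library and PCGF5 at 0%, 1.09% and 2.03%, so the group was higher in both hairpins. At a fold of at least 1.5 PCGF3 had 9.03%, 0% and 0% and PCGF5 0.142%, 1.09% and 9.52%, so sh4 was not below NC. In the PHC and SCM genes the sh1 value came from PHC2 alone and the sh4 value from PHC2 and SCMH1. Variant PRC1 was lower in sh1, while in sh4 its mean was above NC and its pooled coverage below (7.09%, 1.97% and 6.88% in NC, sh1 and sh4), and 2 of its 3 genes were lower in both.

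**Figure D3:**
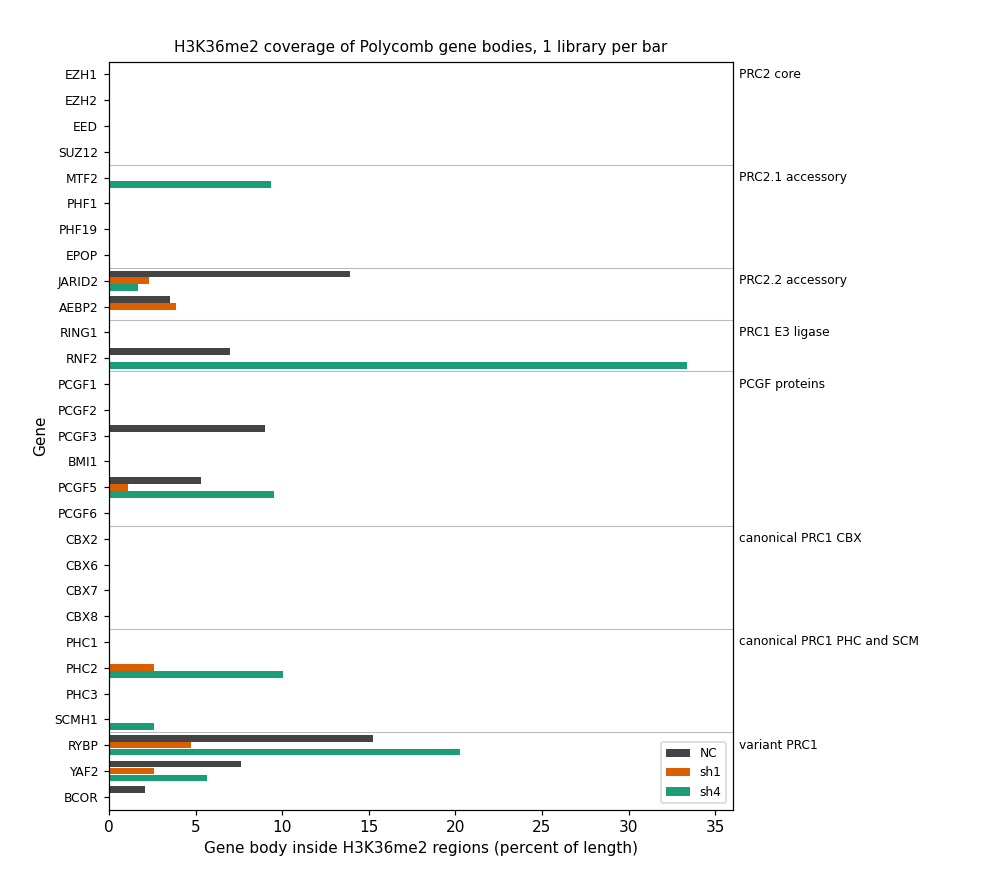
Percent of each gene body inside H3K36me2 regions (x axis) for the 29 Polycomb genes (y axis, grouped by complex), with 1 bar per library and 1 library per group. Bars are present for 11 genes, RNF2 in sh4 has the longest (33.4%), and no bar appears in the PRC2 core or CBX groups.

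Gene length divided the members at the limit of 50 kb, which was chosen after values had been seen. Every member under 50 kb, 15 genes, had 0% coverage in all 3 libraries, where 11.9% of the 13574 genes of that length had a region in at least 1. Of the 14 members of 50 kb or longer, 11 had a region in at least 1 library, against 67.4% of 6247 genes. By library these were 8 in NC (49.1% of all such genes), 6 in sh1 (42.5%) and 8 in sh4 (41.0%). The 3 long members without a region were EZH2, SUZ12 and PHC3. Mean coverage of the 14 was 4.56%, 1.23% and 6.61% in NC, sh1 and sh4, beside 3.43%, 2.77% and 3.05% in all genes of that length. A second range, 10795 to 81145 bp, was taken from the members' own lengths. In it 4, 2 and 4 of 15 members had a region in NC, sh1 and sh4, against 13.9%, 9.28% and 8.68% of all genes.

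**Figure D4:**
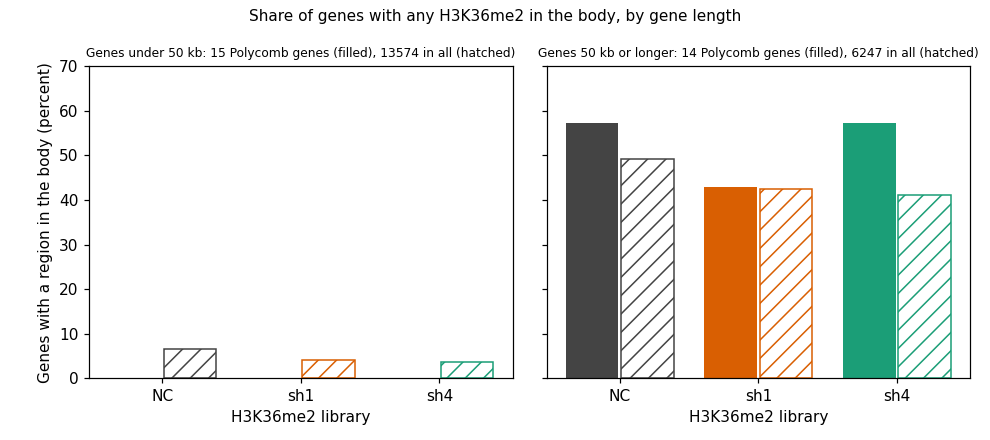
Percent of genes with an H3K36me2 region in the body (y axis) in each library (x axis), for genes under 50 kb (left) and 50 kb or longer (right); filled bars are the Polycomb genes and hatched bars all protein-coding genes. No Polycomb gene under 50 kb has a region, and among the 14 long ones 8, 6 and 8 have one in NC, sh1 and sh4.

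Coverage was lower in both hairpins than in NC in 4 members (12.6% of all genes), higher in both in 1 (4.69%) and on opposite sides of NC in 4 (4.75%). All of these members were 50 kb or longer. Among the 14 members of that length, 4 were lower in both and 1 higher in both, against 27.15% and 13.41% of all such genes. The share on opposite sides was not counted by length. Both hairpins share the NC library, so a region called or missed there moves both differences. Across the 36 regions in member bodies folds ran from 1.216 to 2.27 on 82 to 785 immunoprecipitate reads, recovered from the deposited fold and p-value. Intervals given with folds are 95% Clopper-Pearson intervals on these reads and cover counting error only. Coverage itself is a called length and has no such interval.

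JARID2, which brings PRC2 to its targets, had the largest covered length of the members in NC. Its coverage was 13.9% in NC, 2.32% in sh1 and 1.67% in sh4, so both hairpins lay below the control. In NC 6 regions of 2.2 to 12.2 kb were spread from 38.5 to 194.5 kb past the start. The widest, 15284601 to 15296800 on chromosome 6, had a fold of 1.34 (interval 1.152 to 1.548; 430 IP and 317 input reads). The narrowest had the highest fold, 1.93 (1.35 to 2.78; 96 and 49 reads). In sh1 there were 2 regions, one of which had 50% of its length inside an NC region, and in sh4 there was 1. The second sh1 region (213.5 to 216.3 kb, fold 1.70, interval 1.26 to 2.31) and the sh4 region (211.9 to 216.5 kb, fold 1.44, interval 1.14 to 1.81) overlapped each other and no NC region. JARID2 thus had less called length in both hairpins than in NC, and the hairpins shared a place not called in NC. The gap was smaller when regions of low fold were left out: with a fold of at least 1.5, and likewise above the NC median, coverage was 4.20% in NC, 2.32% in sh1 and 0% in sh4.

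The others lower in both hairpins were PCGF3, YAF2 and BCOR. PCGF3, of a variant PRC1, had 9.03% in NC and 0% in sh1 and sh4, all from a region of 5.8 kb, 6.97 to 12.8 kb past the start (fold 1.51, interval 1.221 to 1.87). BCOR had 2.06%, 0% and 0%, from a region of 2.6 kb, 106.3 to 108.9 kb past the start (fold 1.596, 1.18 to 2.16). Each of these differences is thus the presence of a single called region in NC, and above the NC median fold PCGF3 was at 0% in all 3 libraries. YAF2 had 7.64% in NC, 2.58% in sh1 and 5.67% in sh4. Its NC region, 62.7 to 68.9 kb past the start, contained the narrow sh1 region whole (fold 2.27, interval 1.53 to 3.44), a second sh1 region reached 297 bp into the body at the other end, and the sh4 region lay elsewhere, at 4.05 to 8.65 kb (fold 1.71, 1.30 to 2.26). Above the NC median fold the direction of YAF2 turned, with 0% in NC, 2.58% in sh1 and 5.67% in sh4. With a fold of at least 1.5 its values were unchanged.

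PHC2, a polymerising subunit of canonical PRC1, was the member higher in both hairpins, with 0% in NC, 2.61% in sh1 and 10.1% in sh4. The sh4 region of 10.8 kb lay 1.495 to 12.29 kb past the start with a fold of 1.36 (interval 1.154 to 1.599; 357 IP and 260 input reads). The sh1 region of 2.8 kb lay at 16.7 to 19.5 kb with a fold of 1.65 (1.219 to 2.26; 117 and 70 reads). The hairpins therefore shared a direction and no base, and under both fold limits PHC2 in sh4 was at 0%, as in NC, which ends the call. MTF2 and SCMH1 had coverage in sh4 alone, 9.37% and 2.603%, each from a region of 5.6 kb (folds 2.01 and 1.87).

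RNF2 had the highest coverage of any member in any library, 33.4% in sh4, beside 7.01% in NC and 0% in sh1. The sh4 coverage came from 3 regions. The widest, 185035801 to 185055200 on chromosome 1 and 19.4 kb long, ran from -9757 to 9642 bp relative to the start and so lay over the promoter printed above and its KDM2A peak. Its fold of 1.216 was the lowest among the members' regions (interval 1.09 to 1.35), on the most reads, 785 IP and 638 input. The other sh4 regions had folds of 1.54 (1.29 to 1.84) and 1.41 (1.17 to 1.70), and the NC region, at 37.04 to 41.04 kb, 1.90 (1.44 to 2.51). RNF2 lies on the long arm of chromosome 1, where regions beyond 140 Mb covered 3.74 Mb in NC, 3.13 Mb in sh1 and 15.5 Mb in sh4, in lists of 101.8, 94.3 and 112.1 Mb in all. The part of this local difference in the RNF2 value was not tested. The other members on chromosome 1, MTF2, PHC2 and SCMH1, also had more coverage in sh4 than in NC. They lie short of 140 Mb, and the length of regions in that part of the chromosome was not counted. All sh4 coverage of PRC2.1, of the ligases and of the PHC and SCM genes came from members on chromosome 1. Position and complex can thus not be told apart for it. Above the NC median fold RNF2 was at 7.01% in NC and 0% in both hairpins, so it no longer lay on opposite sides. With a fold of at least 1.5 it still did, at 7.01% in NC, 0% in sh1 and 14.0% in sh4.

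RYBP, PCGF5 and AEBP2 also lay on opposite sides of NC in the hairpins. RYBP, which takes the place of CBX proteins in variant PRC1, had 15.3% in NC, the highest of the members there, 4.72% in sh1 and 20.3% in sh4. Its regions were 2, 1 and 2 in number, and the sh4 region at 30.2 to 35.2 kb had 44% of its length inside an NC region. PCGF5, of a variant PRC1, had 5.29%, 1.09% and 9.52%. Its sh1 region of 1.4 kb (fold 1.89, interval 1.29 to 2.80) lay whole inside a sh4 region of 4.4 kb (fold 1.5, 1.18 to 1.92), 37.8 to 42.2 kb past the start, where NC had none. AEBP2 had 3.56%, 3.89% and 0%, from a region of 4.2 kb at 61.5 to 65.7 kb in NC and one of 4.6 kb at 104.9 to 109.5 kb in sh1. None of these calls held with a fold of at least 1.5: RYBP (3.61%, 4.72% and 6.94%) and PCGF5 (0.142%, 1.09% and 9.52%) were then higher in both hairpins and AEBP2 (3.56%, 0% and 0%) lower in both.

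**Figure D5:**
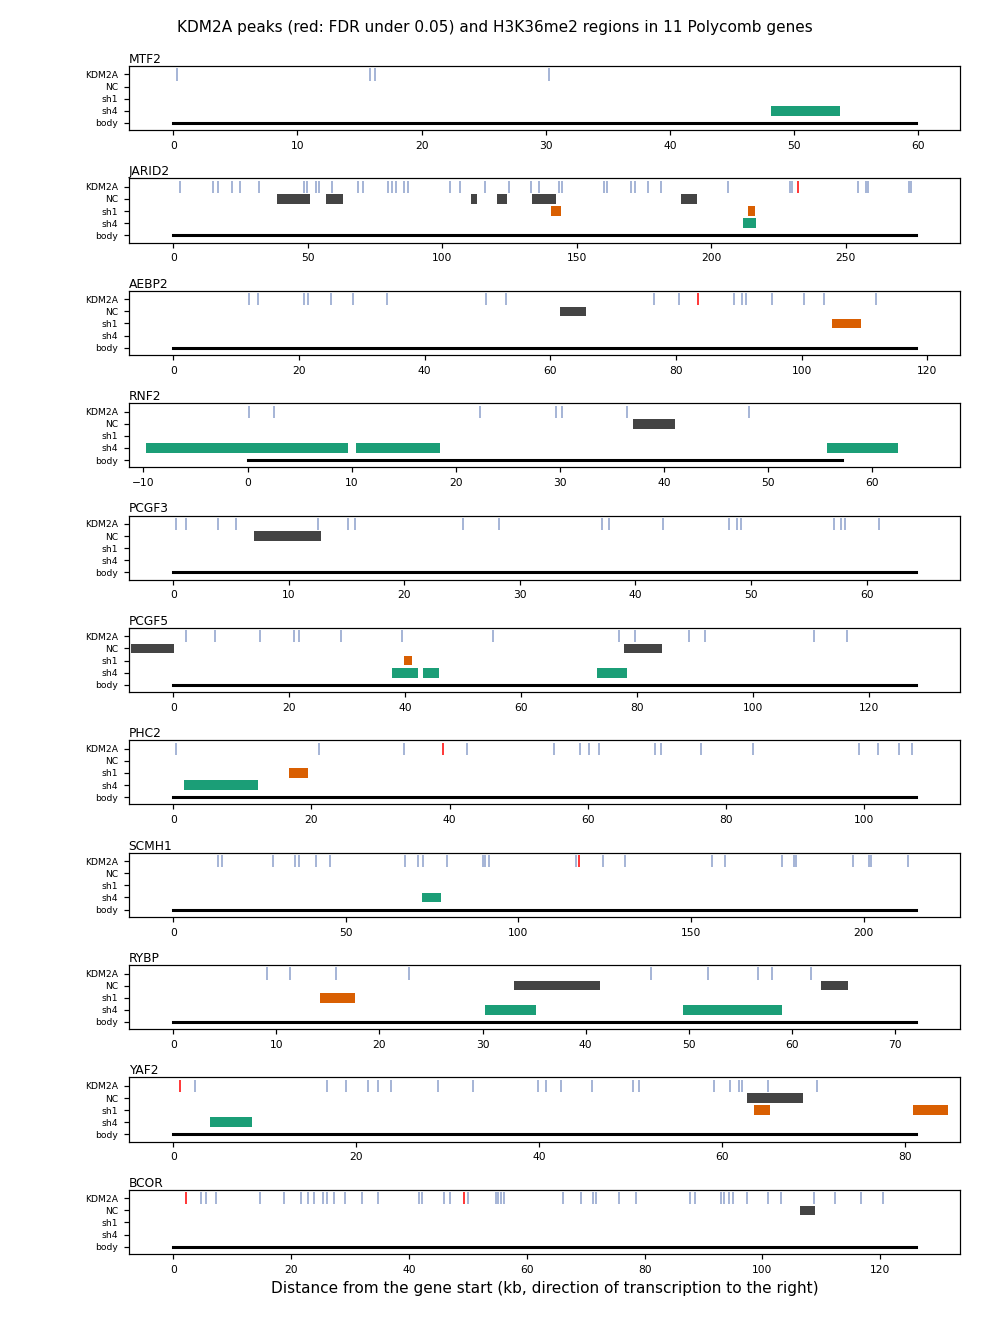
Position from the gene start (x axis, kb, direction of transcription to the right) of KDM2A peaks in the body (ticks, red where the FDR is under 0.05) and of H3K36me2 regions (bars, 1 row per library) in the 11 Polycomb genes with a region in the body, the black line being the body. Bars of different libraries seldom share a place, and the RNF2 region over the start appears in sh4 alone.

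Few of the called bases recurred between libraries. Of the 36 regions in member bodies, 15 were in NC, 8 in sh1 and 13 in sh4, and 23 touched no region of another library. The matching count over the whole lists was not made, so 23 cannot be called high or low. Shared length in the bodies was 3.6 kb between NC and sh1 (4.56% of NC and 17.4% of sh1), 2.8 kb between NC and sh4 (3.55% and 3.63%) and 4.2 kb between sh1 and sh4 (20.3% and 5.45%). No base was shared by all 3. Over the whole lists the same shares were 9.67% and 10.4%, 8.68% and 7.88%, and 11.3% and 9.53%. A coverage near that of NC, as in AEBP2 for sh1, therefore does not mean the same place.

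Fewer members had H3K36me2 near a gene end than in the body, as over all genes. The windows together hold much less length than the bodies, and coverage per base was not compared between them. A region came within 2 kb of an end in 3 members in NC (5.92% of all genes), 1 in sh1 (3.84%) and 5 in sh4 (4%). In NC these were PCGF5 and CBX6 at their starts and RYBP at its other end, and the CBX6 region stopped 785 bp before the start, outside the body. In sh1 it was YAF2, with regions at both ends, one of them ending at -353 bp relative to the start. In sh4 these were RNF2 at both ends, MTF2, PHC2 and SCMH1 at the start and YAF2 at the other end. Inside a region lay the outer start of PCGF5 (NC), the other end of YAF2 (sh1) and both ends of RNF2 (sh4). The start that RefSeq lists for PCGF5 lies 6.77 kb further in, outside the NC region.

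KDM2A peaks within the members' H3K36me2 regions were few. In NC 8 peak midpoints lay in 78.98 kb of regions, 10.1 per 100 kb, against 18.0 per 100 kb in the rest of the bodies, a ratio of 0.564 (95% counting interval 0.241 to 1.12). For sh4 regions the ratio was 0.578 (0.248 to 1.15; 8 peaks) and for sh1 regions 0.821 (0.168 to 2.42; 3 peaks). Each interval includes equal density, so a difference was not detectable at these numbers. Over the whole lists, outside genes as well, regions held 20.4 (NC), 19.3 (sh1) and 16.6 (sh4) KDM2A peaks per 100 kb.

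Other genes of the Polycomb and Trithorax pathways, 53 in all, were counted for comparison: RBBP4 and RBBP7, further partners of variant PRC1, the deubiquitinase PR-DUB, the lysine 27 demethylases, the KMT2 complexes and other SCM and MBT genes. A KDM2A peak lay at an end in 41 of them (84% of all genes) and 1 had one with an FDR under 0.05 (5.55%). H3K36me2 lay in the body of 17 in NC (20% of all genes), 8 in sh1 (16.2%) and 11 in sh4 (15.4%). Their mean coverage was 2.49%, 0.692% and 1.14%. Coverage was lower in both hairpins in 12 (12.6% of all genes), higher in both in 1 (4.69%) and on opposite sides in 4 (4.75%). Their pooled coverage was 5.01%, 2.52% and 3.13% in NC, sh1 and sh4, so these genes lay below NC in both hairpins on either measure. The lowest mean was in sh1 in these genes, in the members and over all genes. The end peak of low FDR was at KMT2B, a methyltransferase of H3 lysine 4 (fold 3.87, FDR 0.00485).

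Among these genes coverage reached 10% in a library in 6. RBBP7, a histone chaperone in PRC2, had 11.5% in NC, and MAX and DCAF7, partners of the PCGF6 and of the PCGF3 and PCGF5 forms of PRC1, had 18.0% and 21.5% in NC; all 3 had 0% in sh1 and sh4. L3MBTL3 had 16.8%, 2.28% and 7.98% in NC, sh1 and sh4, SFMBT1 6.596%, 12.5% and 5.90%, and ASXL3 of PR-DUB 2.78%, 0% and 14.9%. KDM2B, the paralogue of the targeted enzyme, had 0% in all 3 libraries, 33 KDM2A peaks in the body and an end peak of fold 2.58 (FDR 0.324). The KDM2A gene itself had 0% in all 3, 26 peaks in the body and none at an end. Neither value measures the knockdown.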

How the data were processed

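Peak lists of 4 ChIP-seq libraries were used. The submitters' processing notes name Bowtie 1.1.2, MACS2, SICER and the build hg38 or GRCh38, with no role for any; filters and library totals are not given in the sources used here. The authors deposited a fold (a linear ratio of IP to background), a p-value and an FDR for each peak, a score for each H3K36me2 region and, for KDM2A, a pileup signal. Regions lie on a grid of 200 bp. The H3K36me2 reads of a region were recovered from its fold and Poisson p-value (scripts in Python 3.11.15 with scipy 1.17.1, tested on simulated data), except for 5 regions in NC, 5 in sh1 and 6 in sh4. The median region held 162, 151 and 156 IP reads; for KDM2A the pileup is the single guide to depth, which is otherwise unknown.

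Gene positions were those of RefSeq GRCh38.p14, which gives gene ends without exons, so intron and exon are not stated; 153 protein-coding genes of other sequences were left out. Strand came from the RefSeq promoter table. Any overlap of 1 bp counted, within 2 kb of a gene end or in the body. With 1 library per group nothing was tested between groups, and member values are set beside all genes. All 29 members are named; other genes are named where an end peak has an FDR under 0.05 or coverage reaches 10%, besides KDM2A and KDM2B. Members and lists were chosen with earlier results of these data known. Alternatives were other peak, fold, window and overlap limits.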

Additional observations from a re-analysis of the deposited data

Results flagged for a closer look

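In 5 values sh1 and sh4 differed from NC in opposite directions, each from single libraries, and the difference between hairpins was not tested. For the mean coverage of the 29 genes the difference from NC was -1.61 percentage points in sh1 and 0.992 in sh4. For RNF2 it was -7.01 in sh1 and 26.4 in sh4, and for RYBP -10.6 and 4.998. For PCGF5 it was -4.20 and 4.23, and for AEBP2 0.339 and -3.56.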

How the results depend on the processing

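With 1 library per group no replicate could be left out, and No paired analysis was possible because each group holds 1 library, so the groups share a single replicate number. Of 145 alternatives 104 stayed within the limit set for a change, 31 moved further and 10 turned the direction. For KDM2A, with an FDR under 0.05 there were 2 members with an end peak and 8 with a body peak, and keeping the 10% with the highest fold gave 6 and 12 (16.4% and 42.3% of all genes).

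With regions of a fold above the NC median, 5 members had H3K36me2 in NC and 4 in sh4, and mean coverage was 0.705% in NC and 0.678% in sh4, so that sh4 no longer lay above NC. With a fold of at least 1.5 the means were 1.29% and 1.66%. Under either fold limit 2 members were higher in both hairpins, YAF2 and PCGF5 above the NC median and PCGF5 and RYBP at 1.5, and PHC2 was not among them. No member (0) had 5% of its body covered in sh1. The sh4 mean without RNF2 was 2.11%; this setting, and the requirement that the counting interval of a region's fold lie above 1, which moved no value, were chosen after seeing the data.

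The fold limits turned 7 of 20 gene differences from NC, in 5 members. Above the NC median, in percentage points, RNF2 in sh4 became -7.01, RYBP 1.11 in sh1 and -3.61 in sh4, YAF2 2.58 in sh1 and 5.67 in sh4, PCGF5 1.09 in sh1 and AEBP2 -3.56 in sh1. At a fold of at least 1.5 RYBP in sh1 was 1.11, PCGF5 0.951 and AEBP2 -3.56. In these alternatives fewer regions are counted. JARID2 and BCOR were lower in both hairpins under every region setting tried. For JARID2 the differences were -1.88 points in sh1 and -4.20 in sh4 under both fold limits. For BCOR, at 0% in both hairpins, a fold limit could keep or remove the difference but not turn it. Its single NC region had a fold of 1.596, just above the NC median of 1.594. PHC2 in sh4 came to no difference (0) under both fold limits, and PCGF3 in both hairpins above the NC median. Depth limits what can be said of regions with folds near 1.216 and of KDM2A peaks with a pileup of 5 to 11.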
